A study of Mus musculus with 8 samples.

Results

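Bone marrow (BM) neutrophils of mice challenged with lipopolysaccharide (LPS) were compared with BM neutrophils of mice given PBS, with all cells of a plate summed. The members were the BM plates named by tissue and treatment, 8 of the 16 plates of the series and 710 of its 1421 cells. Each cell had been picked with a mouth pipette after neutrophil enrichment, and its RNA was counted by SCRB-seq, a method that tags each 3′ cDNA end with a cell barcode and a unique molecular identifier (UMI). The donors were adult male C57BL/6J mice that received an intraperitoneal injection of LPS at 0.5 mg/kg, labelled 4 hours, or of PBS, labelled 0 hours, so treatment and labelled time cannot be told apart. LPS BM comprised 3 plates with 271 cells, 2 plates in batch 7 and 1 in batch 6. PBS BM comprised 5 plates with 439 cells, 2 in batch 7 and 3 in batch 6, the third of which had been deposited in 2 parts that were joined. The GEO labels describe the batch 7 plates as samples, whereas batch 6 plates were placed by the tissue and treatment in the names of their cells and in the authors' cell annotation. Nothing states that plates came from separate mice, so p-values measure the spread between plates, which may be technical.

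Neutrophils are made and stored in BM, where maturing cells fill their granules with antimicrobial proteins before release into the peripheral blood (PB). LPS, the outer membrane lipid of Gram-negative bacteria, is sensed on myeloid cells through TLR4 with CD14 and MD-2. Its signals run through NF-κB and, in part through secreted interferon, through STAT factors, and inside the cell LPS is also sensed by caspase-11, the product of Casp4.

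The plates held 83 to 92 cells and 6973234 to 10089434 UMIs each. Neutrophil markers were abundant in each plate, with a summed level of 306600 to 414600 CPM (UMI counts scaled to the same total in every plate) over 12 markers in the LPS plates and 365000 to 462600 CPM in the PBS plates. Markers of other cells were low. No BM cell had over 2% of its UMIs in 66 markers of other cell types, and Cd3e of T cells and Gp5 and Treml1 of platelets had no UMI in BM. For all 12 marker lists the summed levels overlapped between LPS and PBS plates, but 1 abundant gene can set such a sum. In the LPS plates Chil3 alone stood at 2551 to 6067 CPM, of 2882 to 6340 CPM for the list of early neutrophil precursors. Within that list Mki67 stood at 45.1 to 73.4 CPM after LPS and 4.13 to 28.25 CPM after PBS. Cebpe, Fcnb and Hmgn2 had log2 fold changes below 0, and none of its 8 tested members passed the test below. The authors' clustering placed 7, 5 and 1 cells of the LPS plates, in the order batch 7 plates and batch 6, in the cluster formed mainly by PBS blood neutrophils, and 2 to 19 cells of each PBS plate, with 19 of 89 cells (21.3%) in the third PBS plate of batch 6. The 2 parts of this plate shared 42 well barcodes, and no 2 BM cells had identical profiles.

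Of 7388 genes with enough UMIs to test, 34 differed between LPS and PBS BM plates at an adjusted p below 0.05 (edgeR quasi-likelihood test on plate sums with batch as a term, Benjamini-Hochberg adjustment over all genes), which was 0.46% of genes tested. The test called 25 genes higher after LPS (0.338%) and 9 lower (0.122%). Counts of list members that rose or fell, given below, are to be read beside these shares. All 34 had the same direction in batch 7 and in batch 6. In 32 of them the LPS plates lay wholly above or wholly below the 5 PBS plates, whereas over all genes tested 4.09% had LPS plates wholly above and 2.83% wholly below. Both traits are favoured by calling genes on these same plates. Genes at an unadjusted p below 0.05 numbered 599, with 3.8% of tested genes higher and 4.3% lower after LPS. In a plate sum, fewer cells of a type and less RNA per cell cannot be told apart, so shares of cells are given beside some genes. Values are CPM after TMM scaling, 1 per plate, in the order batch 7 plates 1 and 2 and then the batch 6 plates, or the range over plates.

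**Figure D1:**
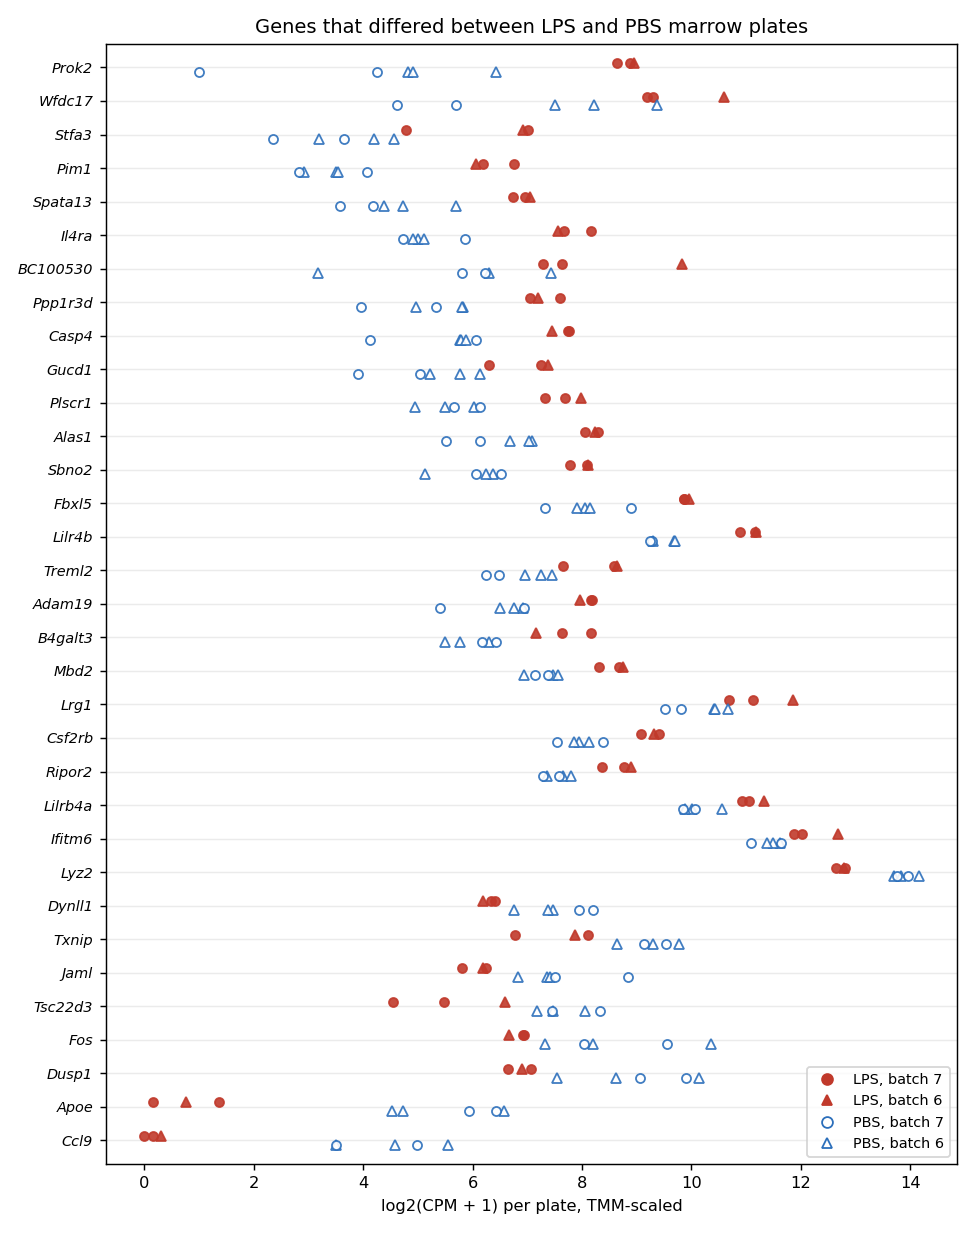
Level of 33 of the 34 called genes in each of the 8 BM plates, as log2(CPM + 1) on the horizontal axis, with LPS plates filled, PBS plates open, circles for batch 7 and triangles for batch 6. LPS and PBS plates overlap only for Wfdc17 and BC100530 among these, and Apoe and Ccl9 stand near 0 in the 3 LPS plates.

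The RefSeq upstream windows of the called genes (250 bases before the start, GRCm38.p6) were searched on both strands for 6 motifs, chosen with the calls known. Windows were found for 27 of the 34 genes, 18 that rose and 9 that fell, and some genes had several (42 windows in all). The STAT motif TTCNNNGAA occurred upstream of 7 of the 18 genes that rose (Alas1, Gucd1, Ifitm6, Lilr4b, Plscr1, Sbno2 and Spata13) and 1 of the 9 that fell (Tsc22d3), and upstream of 8.13% of 27025 genes. The NF-κB motif (GGGA, any 4 letters, CC) occurred upstream of 8 and 3 (19.7% of genes). TGANTCA (AP-1) occurred upstream of 2 and 1 (7.82%), TGACGTCA (CRE) of 1 and 1 (1.77%), ACANNNTGT (glucocorticoid receptor) of 0 and 2 (6.76%) and TTGCNNCAA (C/EBP) of none (1.98%). A match describes letters only and was not tested as a site. Windows are shown for 3 genes that rose, with the STAT match in capitals, and for Dusp1, which fell, with the CRE match in capitals. They are those of Lilr4b (chr10:51480362-51480611, plus strand), Sbno2 (chr10:80102703-80102952, minus strand), Plscr1 (chr9:92249944-92250193, plus strand) and Dusp1 (chr17:26508473-26508722, minus strand).
Lilr4b: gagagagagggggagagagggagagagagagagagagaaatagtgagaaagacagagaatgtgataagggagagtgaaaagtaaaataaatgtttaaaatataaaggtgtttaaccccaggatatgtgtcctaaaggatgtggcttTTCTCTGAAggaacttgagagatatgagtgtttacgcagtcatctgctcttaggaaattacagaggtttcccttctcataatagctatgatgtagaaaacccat
Sbno2: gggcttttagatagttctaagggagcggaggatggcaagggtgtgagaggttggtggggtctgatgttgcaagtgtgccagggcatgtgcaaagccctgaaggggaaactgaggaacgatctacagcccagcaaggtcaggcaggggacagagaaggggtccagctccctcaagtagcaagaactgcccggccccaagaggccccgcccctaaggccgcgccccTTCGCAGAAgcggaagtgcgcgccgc
Plscr1: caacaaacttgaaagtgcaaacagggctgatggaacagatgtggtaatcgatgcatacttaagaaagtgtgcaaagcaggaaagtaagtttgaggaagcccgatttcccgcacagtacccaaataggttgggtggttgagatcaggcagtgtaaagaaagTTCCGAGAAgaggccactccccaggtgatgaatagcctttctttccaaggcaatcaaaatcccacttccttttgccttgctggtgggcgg
Dusp1: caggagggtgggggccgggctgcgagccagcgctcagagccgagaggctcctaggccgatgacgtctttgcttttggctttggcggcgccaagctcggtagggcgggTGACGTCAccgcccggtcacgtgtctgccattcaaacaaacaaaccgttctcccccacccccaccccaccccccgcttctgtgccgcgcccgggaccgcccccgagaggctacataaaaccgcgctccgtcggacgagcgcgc

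The gene with the lowest adjusted p encoded a receptor of the gp49 family of immunoglobulin-like receptors. Lilr4b (gp49A; mm9 chr10:51200438-51206122, plus strand) stood at 2290.4, 1901 and 2304 CPM after LPS and 620.5, 608, 815, 829.22 and 626 CPM after PBS, and the groups did not overlap (log2 fold change 1.70 ± 0.18 (SE), adjusted p = 4.31e-05). After each cell was thinned to 5000 UMIs, Lilr4b was found in 90.9 to 98.9% of cells after LPS and 55.4 to 73.6% after PBS. Its neighbour Lilrb4a, which encodes an inhibitory receptor with cytoplasmic tyrosine motifs, stood at 1944 to 2580.1 CPM after LPS and 914 to 1503 CPM after PBS (log2 fold change 1.09 ± 0.19 (SE), adjusted p = 0.00431). The 2 genes are close copies and overlap on one strand in the mm9 annotation, so the share of UMIs given to each is uncertain. Treml2, a receptor of the TREM family, rose with them, at 201 to 399 CPM after LPS and 74.9 to 175 CPM after PBS (log2 fold change 1.66 ± 0.28 (SE), adjusted p = 0.00431). Of 27 tested genes in the list of LILR and related receptors these 3 rose, none fell and 24 did not pass, and the list median of -0.05 was close to that of all genes (-0.01). The abundant signalling adaptors of such receptors, Fcer1g and Tyrobp, had log2 fold changes of -0.21 ± 0.16 (adjusted p = 0.865) and -0.47 ± 0.20 (adjusted p = 0.505).

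Prok2, Wfdc17 and Stfa3 had the 3 largest log2 fold changes among the genes that rose. Prok2 encodes prokineticin 2 (Bv8), a secreted peptide of myeloid cells, and lies at mm9 chr6:99661293-99676386, minus strand. It stood at 472, 398 and 493.02 CPM after LPS and 0.984, 18, 27.2, 85.4 and 29 CPM after PBS, so the lowest LPS plate was above the highest PBS plate (log2 fold change 4.69 ± 0.63 (SE), adjusted p = 0.000354). Prok2 UMIs were seen in 81.8 to 93.5% of cells of the LPS plates and 7.23 to 42.9% of cells of the PBS plates, and after thinning in 43.2 to 58.2% of cells after LPS and 2.41 to 13.2% after PBS. Wfdc17, a small protein with a whey acidic protein domain, stood at 627, 585 and 1544 CPM after LPS and 51, 23.6, 180.5, 296 and 657 CPM after PBS. The third PBS plate of batch 6 exceeded both batch 7 LPS plates in Wfdc17, but within each batch the LPS plates were higher, by 4.12 in batch 7 and 2.24 in batch 6 on the log2 scale (log2 fold change 3.27 ± 0.43 (SE), adjusted p = 0.000354). Lrg1, which encodes a leucine-rich glycoprotein secreted by neutrophils and liver, stood at 1642, 2222 and 3691 CPM after LPS and 731, 897, 1631, 1368 and 1372 CPM after PBS (log2 fold change 1.29 ± 0.18 (SE), adjusted p = 0.000354).

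Of the stefin A cluster, inhibitors of cysteine cathepsins, Stfa3 and BC100530 rose and Stfa2l1 did not pass. Stfa2l1 lay on the other side of 0, at 64.2 to 298 CPM after LPS and 288 to 761 CPM after PBS (log2 fold change -1.66 ± 0.40 (SE), adjusted p = 0.0717). Stfa3 stood at 128, 26.7 and 120.0 CPM after LPS and 4.08, 11.6, 8.18, 22.6 and 17.2 CPM after PBS (log2 fold change 3.13 ± 0.64 (SE), adjusted p = 0.0254). BC100530, a near copy of it, stood at 155, 197 and 909 CPM after LPS and 55.1, 73.6, 172, 77.2 and 8.01 CPM after PBS and the groups overlapped (log2 fold change 2.38 ± 0.53 (SE), adjusted p = 0.0418). In the LPS plates of batch 7 plate 2 and batch 6, 94.0% and 77.2% of BC100530 UMIs came from 2 cells. For Stfa3 the share of 2 cells was 65.5, 92.7 and 72.6% in the LPS plates and 85.25 to 100% in the PBS plates. Without these cells, and without TMM scaling, Stfa3 stood at 2.30 to 53.4 CPM after LPS and 0 to 2.0 CPM after PBS. After thinning, Stfa3 was found in 2.17 to 12.1% of cells after LPS and 1.09 to 3.57% after PBS, which overlap. Per the paper's methods, deduplication used uniquely mapped reads, so reads that fit more than one stefin A copy would have been left out. These values are therefore uncertain. In the list drawn up as tertiary granule and secretory vesicle proteins 4 of 20 tested genes rose (Prok2, Wfdc17, Stfa3 and BC100530), against 0.338% of all genes tested. None fell, and the list median was 0.21. Where the products of these genes are stored was not measured, and Stfa3 and BC100530 are the stefin A genes above. The calls therefore do not describe the granule class as a whole. The abundant members Retnlg, Mmp8 and Wfdc21 had log2 fold changes of -0.25 ± 0.17 (adjusted p = 0.817), 0.29 ± 0.15 (adjusted p = 0.658) and -0.16 ± 0.15 (adjusted p = 0.908).

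Lyz2, the lysozyme gene of myeloid cells (mm9 chr10:116714390-116719377, minus strand), fell. It stood at 6389.8, 7207 and 7052 CPM after LPS and 13815, 15830.0, 13312, 18235 and 14484 CPM after PBS, and was detected in every cell of every BM plate. The highest LPS plate was below the lowest PBS plate (log2 fold change -1.12 ± 0.15 (SE), adjusted p = 0.000354), and the log2 difference was -1.12 in batch 7 and -1.11 in batch 6. Among the other abundant granule genes, Ngp, Camp and Lcn2, which encode neutrophilic granule protein, cathelicidin and lipocalin 2, did not pass, with log2 fold changes of -0.41 ± 0.17 (adjusted p = 0.489), -0.53 ± 0.16 (adjusted p = 0.224) and -0.03 ± 0.17 (adjusted p = 0.991). Of 21 tested secondary granule genes Lrg1 rose, Lyz2 fell and 19 did not pass. None of the 8 tested genes of the primary granule list passed, and Mpo, Elane and Ms4a3 of that list had too few UMIs to test. The most abundant members were Hp, which is also on the secondary granule list, Srgn and Serpinb1a. These had log2 fold changes of 0.17 ± 0.17 (adjusted p = 0.924), 0.41 ± 0.23 (adjusted p = 0.712) and 0.22 ± 0.26 (adjusted p = 0.945). The calprotectin genes S100a8 and S100a9 had log2 fold changes of -0.25 ± 0.10 (adjusted p = 0.469) and -0.22 ± 0.11 (adjusted p = 0.658), at 132290.0 to 174780.0 CPM after LPS and 157410.0 to 205150.0 CPM after PBS for S100a8. In the list of acute phase, WAP and antimicrobial genes, which shares members with the granule lists, 3 of 28 tested genes rose (Wfdc17, Lrg1 and Prok2), Lyz2 fell, and the median was -0.05.

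Il4ra and Csf2rb, which encode chains of cytokine receptors, rose, while Csf3r did not pass. Il4ra, the α chain shared by the receptors for IL-4 and IL-13 (mm9 chr7:132695785-132722986, plus strand), stood at 287, 202 and 188 CPM after LPS and 25.3, 57, 30.8, 29.2 and 33.6 CPM after PBS (log2 fold change 2.58 ± 0.34 (SE), adjusted p = 0.000354). It was found after thinning in 36.4 to 50% of cells after LPS and 3.61 to 9.78% after PBS. Csf2rb, the common β chain of the receptors for GM-CSF, IL-3 and IL-5, stood at 539, 678 and 639 CPM after LPS and 334, 185, 245, 229.9 and 280.2 CPM after PBS (log2 fold change 1.28 ± 0.23 (SE), adjusted p = 0.0089). The G-CSF receptor gene Csf3r, the most abundant member of the TLR4 and NF-κB list, stood at 1025 to 1446 CPM after LPS and 897 to 2205 CPM after PBS (log2 fold change -0.33 ± 0.23 (SE), adjusted p = 0.839). Cxcr2, the receptor for CXC chemokines that draw neutrophils to blood, stood at 1986, 2012 and 1709 CPM after LPS and 1656, 983, 916, 979 and 1019 CPM after PBS, so that the LPS plates were above the PBS plates without passing the test (log2 fold change 0.69 ± 0.19 (SE), adjusted p = 0.136). Cxcr4, the receptor that holds neutrophils in marrow and was singled out after its values were seen, stood at 18.3 to 46.2 CPM after LPS and 46.7 to 108 CPM after PBS (log2 fold change -1.02 ± 0.45 (SE), adjusted p = 0.527). None of 21 tested genes of the release and homing list passed, and the abundant integrin chain Itgb2 had a log2 fold change of -0.12 ± 0.20 (adjusted p = 0.971).

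Sbno2, Plscr1, Pim1, Mbd2, Spata13 and Ripor2 also rose. Sbno2, a transcriptional regulator induced downstream of IL-10 and STAT3, stood at 273, 219 and 275 CPM after LPS and 90.8, 66, 33.9, 82.1 and 74.6 CPM after PBS (log2 fold change 1.85 ± 0.32 (SE), adjusted p = 0.00431). Plscr1, an interferon-inducible phospholipid scramblase, stood at 159, 204 and 250.1 CPM after LPS and 69.3, 49.2, 29.9, 64 and 43.8 CPM after PBS (log2 fold change 1.99 ± 0.34 (SE), adjusted p = 0.00431). Pim1, a serine/threonine kinase induced by cytokines through STAT factors, stood at 72.4, 107 and 65.3 CPM after LPS and 6.04, 15.8, 6.57, 10.3 and 10.6 CPM after PBS (log2 fold change 2.95 ± 0.61 (SE), adjusted p = 0.0268). For each of the 3 genes the LPS plates lay above the PBS plates. The windows of Sbno2 and Plscr1 with their STAT letters are printed beside that of Lilr4b, while Pim1 had no STAT match. A role of STAT factors was not tested. Mbd2, which binds methylated CpG sites, had a smaller change (log2 fold change 1.32 ± 0.25 (SE), adjusted p = 0.0119). Spata13, a guanine nucleotide exchange factor, stood at 123, 106 and 132 CPM after LPS and 17, 11, 25.3, 19.9 and 51 CPM after PBS (log2 fold change 2.63 ± 0.49 (SE), adjusted p = 0.0113). Ripor2 stood at 329 to 473 CPM after LPS and 155 to 220.5 CPM after PBS (log2 fold change 1.20 ± 0.24 (SE), adjusted p = 0.0184).

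The other genes that rose included Fbxl5, Alas1 and Casp4. Fbxl5 encodes the iron-sensing subunit of a ubiquitin ligase and lies at mm9 chr5:44135855-44212878, minus strand. It stood at 925, 929 and 989 CPM after LPS and 475, 160.0, 266, 281 and 239 CPM after PBS (log2 fold change 1.71 ± 0.26 (SE), adjusted p = 0.00192). Alas1, the first enzyme of heme synthesis, stood at 265, 313 and 299 CPM after LPS and 44.4, 68.8, 102, 135 and 130.5 CPM after PBS (log2 fold change 1.92 ± 0.31 (SE), adjusted p = 0.00315). Casp4 stood at 216, 213 and 173 CPM after LPS and 16.4, 65.6, 53.8, 53.9 and 58 CPM after PBS (log2 fold change 2.08 ± 0.40 (SE), adjusted p = 0.0135). It was found after thinning in 29.6 to 33.7% of cells after LPS and 2.41 to 12.1% after PBS. Casp4 and Pim1 were the 2 of 23 tested genes of the apoptosis and survival list that rose, while none fell. The abundant members Mcl1 and Xiap had log2 fold changes of 0.18 ± 0.22 (adjusted p = 0.95) and 0.07 ± 0.40 (adjusted p = 0.993). Ppp1r3d, a subunit that directs protein phosphatase 1 to glycogen, rose (log2 fold change 2.21 ± 0.43 (SE), adjusted p = 0.0169), as did Adam19, a membrane metalloprotease (log2 fold change 1.57 ± 0.33 (SE), adjusted p = 0.0293). So did B4galt3, a galactosyltransferase (log2 fold change 1.48 ± 0.32 (SE), adjusted p = 0.034), and Gucd1 (log2 fold change 2.04 ± 0.44 (SE), adjusted p = 0.0332). Fbxl5 overlaps Bst1, B4galt3 overlaps Ppox and Gucd1 overlaps Upb1 and 7SK in the mm9 annotation used here for positions. Alas1, Adam19, Prok2, Pim1, BC100530, Txnip, Jaml and Ripor2 also overlap other annotated genes there. The annotation used for counting is not known, so the UMIs given to each gene are uncertain. None of 18 tested glycolysis genes passed, and Pkm, Aldoa and Gpi1 had log2 fold changes of -0.21 ± 0.18 (adjusted p = 0.896), -0.26 ± 0.22 (adjusted p = 0.883) and -0.38 ± 0.21 (adjusted p = 0.693).

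**Figure D2:**
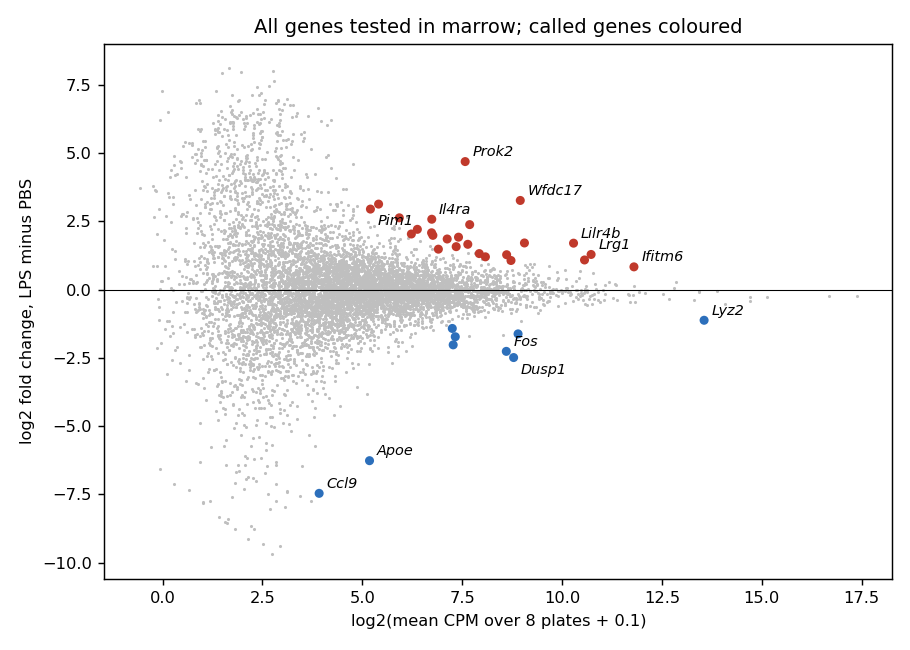
Log2 fold change (LPS minus PBS) of each of the 7388 genes tested in BM against its mean level over the 8 plates, as log2(mean CPM + 0.1), with called genes in red where higher and blue where lower after LPS. Low genes spread widely around 0, and Lyz2 is the called gene with the highest mean level.

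The other genes that fell included negative regulators of signalling that glucocorticoids induce. Dusp1, a phosphatase that switches off MAP kinases (mm9 chr17:26642535-26645464, minus strand), stood at 133, 99.6 and 119 CPM after LPS and 949, 534, 392.38, 185 and 1121 CPM after PBS (log2 fold change -2.49 ± 0.42 (SE), adjusted p = 0.00431). Tsc22d3, which encodes the glucocorticoid-induced leucine zipper, stood at 43.4, 22.2 and 94.9 CPM after LPS and 319, 174, 143, 177 and 265 CPM after PBS (log2 fold change -2.02 ± 0.41 (SE), adjusted p = 0.0207). Txnip, the thioredoxin-interacting protein, stood at 274, 108 and 234 CPM after LPS and 742, 560.1, 398, 624 and 876 CPM after PBS (log2 fold change -1.62 ± 0.31 (SE), adjusted p = 0.0119). In all 3 genes the LPS plates were below the PBS plates, and they were the 3 of 20 tested glucocorticoid-induced genes that fell, while none rose. The list median was -0.50, and it stayed below 0 in each of 21 other settings, between -0.80 and -0.21. Less the median of all genes, it lay between -0.59 and -0.17. The settings reused the same plates, so keeping the sign was favoured in advance. The other abundant members were Lcn2, given above, and Anxa1, with a log2 fold change of 0.06 ± 0.17 (adjusted p = 0.989).

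Fos, a subunit of AP-1, fell as well, from 554 ± 477 CPM (SD, n = 5) in PBS plates to 114 ± 11.9 CPM (n = 3) in LPS plates (log2 fold change -2.26 ± 0.51 (SE), adjusted p = 0.0469). The PBS plates differed among themselves more than the LPS plates, with Fos at 121, 121 and 100.5 CPM after LPS and 751, 259.8, 294, 159 and 1304 CPM after PBS. Fos and Dusp1 were the 2 of 27 tested immediate early genes that fell, and none rose. The list median was -0.07, and it was below 0 in 12 and above 0 in 9 of 21 other settings. The abundant members Mcl1 and Klf6 had log2 fold changes of 0.18 ± 0.22 (adjusted p = 0.95) and 0.08 ± 0.22 (adjusted p = 0.989). In the PBS plate where Fos and Dusp1 were highest, the cells that the authors' clustering grouped with blood neutrophils held most of the signal. In the third PBS plate of batch 6 these cells were 21.3% of cells and held 74.7% of Fos UMIs and 76.9% of Dusp1 UMIs. With the cells of the authors' main BM cluster alone, Dusp1 still fell (log2 fold change -1.92, adjusted p = 0.00478) and Fos did not pass (-1.63, adjusted p = 0.0554). Fos passed in 5 of 8 fits with 1 plate left out and in 6 of 13 other settings. It did not pass with DESeq2 or with library size alone.

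Apoe, the lipid carrier apolipoprotein E (mm9 chr7:20281458-20284515, minus strand), stood at 1.57, 0.108 and 0.698 CPM after LPS and 60, 85.5, 22.1, 25.4 and 93.7 CPM after PBS (log2 fold change -6.27 ± 0.99 (SE), adjusted p = 0.00247). The 3 LPS plates together held 21 Apoe UMIs and the 5 PBS plates 2289, a ratio of 0.0154 (exact 95% interval 0.00948 to 0.0235, counting error only). Apoe UMIs were seen in 1.09 to 5.68% of cells of the LPS plates and 11.9 to 78.0% of cells of the PBS plates. Between 26.3 and 95.2% of a PBS plate's Apoe UMIs came from 2 cells, and in 4 of the 5 PBS plates 72.5 to 93.9% came from the cells grouped with blood neutrophils, while in the second PBS plate of batch 6 none did. With the main BM cluster alone Apoe did not pass (log2 fold change -4.11, adjusted p = 0.505). Apoe was the 1 of 5 tested monocyte and macrophage markers that passed. The summed level of the list was 801 to 1128 CPM after LPS and 753 to 1349 CPM after PBS. Ly6c2 alone stood at 661 to 974 CPM after LPS and 673 to 1175 CPM after PBS. The sum therefore says little about the other markers. C1qc had no UMI in the LPS plates and at most 0.328 CPM in a PBS plate, and Csf1r and Adgre1 overlapped between the groups. Summed hepatocyte markers stood at 114.6 CPM in the second PBS plate of batch 6. They were at 0 to 9.28 CPM in the other PBS plates and 0.233 to 14.1 CPM in the LPS plates. The part of other cells in the Apoe result was not tested. Ccl9, a CC chemokine, had 1, 0 and 2 UMIs in the LPS plates and 73, 249, 170, 95 and 376 UMIs in the PBS plates, a ratio of 0.00521 (exact 95% interval 0.00107 to 0.0153, adjusted p of the fit = 0.0378). In 4 of the 5 PBS plates 2 cells held 93.7 to 98.6% of Ccl9 UMIs.

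Jaml, an adhesion molecule of leukocytes, stood at 54.9, 75.1 and 71.5 CPM after LPS and 456, 181, 163, 113 and 169 CPM after PBS (log2 fold change -1.73 ± 0.36 (SE), adjusted p = 0.0276). Dynll1, a light chain of dynein, stood at 71.5 to 84.2 CPM after LPS and 107 to 292 CPM after PBS (log2 fold change -1.42 ± 0.31 (SE), adjusted p = 0.0332). Of 24 tested genes of the lysosome and lipid list Apoe and Lyz2 fell and none rose, with a median of -0.33. Ctsd and Lamp2 had log2 fold changes of -0.31 ± 0.24 (adjusted p = 0.862) and 0.45 ± 0.29 (adjusted p = 0.794). Txnip was the only one of 25 tested reactive oxygen and antioxidant genes that passed. The abundant members Ftl1, Fth1 and Cybb had log2 fold changes of -0.44 ± 0.16 (adjusted p = 0.342), 0.12 ± 0.17 (adjusted p = 0.965) and 0.16 ± 0.18 (adjusted p = 0.942).

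Interferon-stimulated genes lay mostly above 0. Ifitm6, an abundant interferon-induced transmembrane protein gene, was the one of 46 tested members that passed, at 3744, 4145 and 6562 CPM after LPS and 2187, 3165, 3159, 2894 and 2655 CPM after PBS (log2 fold change 0.83 ± 0.17 (SE), adjusted p = 0.0254). Log2 fold changes were above 0 in 42 of the 46 members, against 3658 of 7388 genes tested, and the list median of 0.82 stood beside -0.01 for all genes. At an unadjusted p below 0.05, 12 members were higher (3.8% of all genes tested were) and none was lower. In 10 members the LPS plates lay wholly above the PBS plates, as they did in 4.09% of all genes tested. Without the LPS plate of batch 6, 6 members were higher at that p and 32 lay above 0. In that setting 583 of 7936 genes tested reached that p in either direction. Without PBS plate 1 of batch 7, 21 members were higher, and 578 of 7246 genes tested reached that p in either direction. The list median was above 0 in each of 21 other settings, between 0.57 without the batch 6 LPS plate and 1.17 with batch 6 alone. Less the median of all genes, it lay between 0.54 and 1.40. The settings reused the same plates, so keeping the sign was favoured in advance. Gbp7 and Stat2, singled out after their values were seen, encode a guanylate-binding GTPase and a factor of the type I interferon response. Gbp7 stood at 93.8 to 137 CPM after LPS and 7.89 to 50.2 CPM after PBS (log2 fold change 2.26 ± 0.52 (SE), adjusted p = 0.0528). Stat2 stood at 52.9 to 105 CPM after LPS and 8.31 to 26.7 CPM after PBS (log2 fold change 2.48 ± 0.62 (SE), adjusted p = 0.088). The abundant members Slfn4 and Ifitm3 had log2 fold changes of 0.61 ± 0.22 (adjusted p = 0.366) and 0.21 ± 0.19 (adjusted p = 0.909).

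None of 40 tested genes of the TLR4 and NF-κB response passed. The list median was 0.06. At an unadjusted p below 0.05, 5 members were higher and 2 lower, against 3.8% and 4.3% of all genes tested. The median was above 0 in each of 21 other settings, between 0.05 and 0.40. It was highest with the main BM cluster alone, where 8 members were higher and 2 lower at that p. Less the median of all genes, the list median lay between 0.05 and 0.51. These settings, too, reused the same plates. Plaur and Clec4e, with Csf3r the most abundant members, had log2 fold changes of -0.55 ± 0.22 (adjusted p = 0.453) and 0.07 ± 0.23 (adjusted p = 0.989). Sod2, mitochondrial superoxide dismutase, stood at 7.86, 29.5 and 5.93 CPM after LPS and 1.41, 21.6, 3.62, 10.6 and 49.9 CPM after PBS, and the groups overlapped (log2 fold change -0.21 ± 1.41 (SE), adjusted p = 0.994). No gene passed among 15 tested mitochondrial, tetraspanin and vesicle genes, among 10 proliferation genes, 24 maturation factors, 21 chaperones or 15 genes of class I antigen presentation. Of their most abundant members, Cd9, Cox4i1 and Cd63 had log2 fold changes of -0.11 ± 0.23 (adjusted p = 0.982), -0.44 ± 0.23 (adjusted p = 0.669) and -0.38 ± 0.24 (adjusted p = 0.795). Hmgb2, H2afz and Hmgn2 had -0.10 ± 0.18 (adjusted p = 0.979), -0.71 ± 0.29 (adjusted p = 0.469) and -0.86 ± 0.30 (adjusted p = 0.342). Mxd1, Spi1 and Cebpd had 0.39 ± 0.19 (adjusted p = 0.597), 0.41 ± 0.20 (adjusted p = 0.629) and 0.13 ± 0.23 (adjusted p = 0.973). Hspa8, Hsp90ab1 and Xbp1 had -0.52 ± 0.24 (adjusted p = 0.583), 0.20 ± 0.27 (adjusted p = 0.958) and 1.19 ± 0.33 (adjusted p = 0.149), and B2m, H2-D1 and H2-K1 had -0.31 ± 0.20 (adjusted p = 0.796), -0.09 ± 0.17 (adjusted p = 0.981) and 0.11 ± 0.24 (adjusted p = 0.982).

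**Figure D3:**
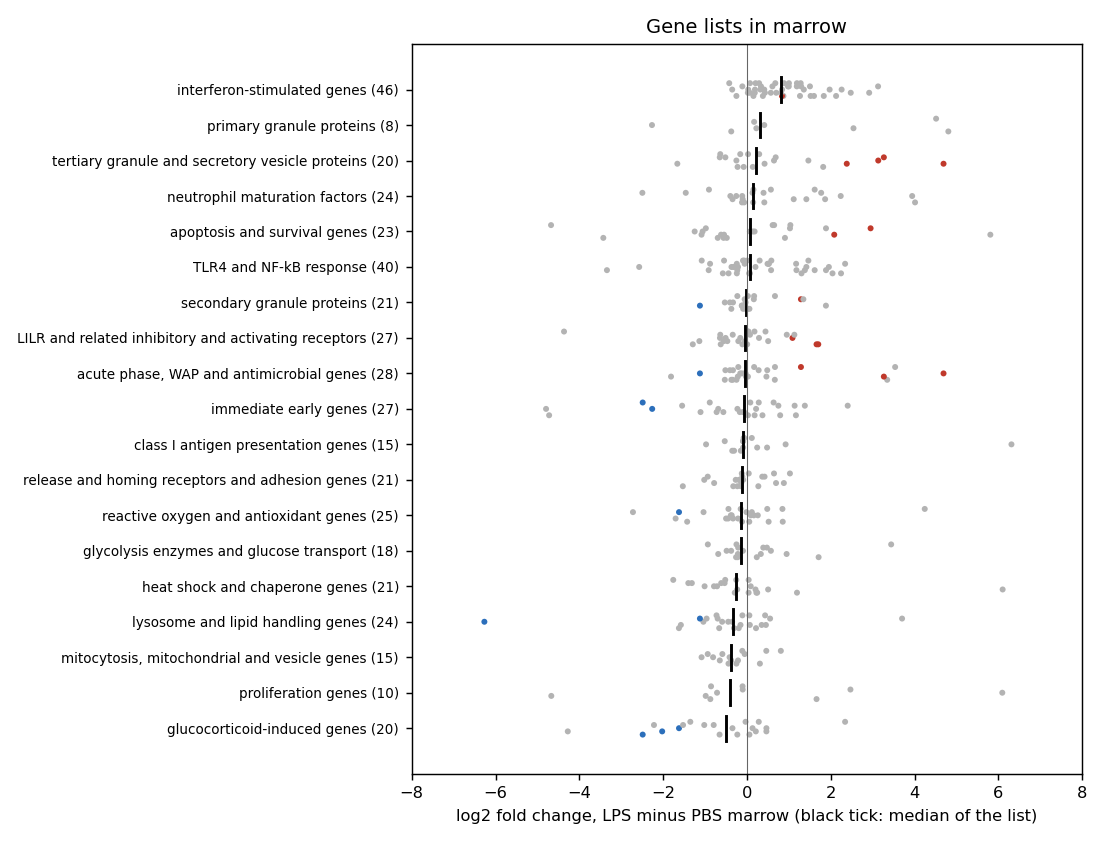
Log2 fold change (LPS minus PBS) of each tested member of 19 gene lists in BM, 1 list a row with its number of tested members, members that rose in red, members that fell in blue, others in grey, and the median as a black tick. The interferon-stimulated genes have the highest median (0.82), and the glucocorticoid-induced genes have a median of -0.50.

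The 2 batches share no plate, so each was read against the other. Batch 7 alone, with 2 plates a group, called 4 genes (Dusp1, Lilr4b, Lyz2 and Wfdc17), and each had the same direction in batch 6. Batch 6 alone, with 1 LPS plate, called 14 genes, with the spread estimated from the 3 PBS plates alone and the lone LPS plate assumed to vary like them. Of these, 13 had the same direction in batch 7, Usp15 being the exception (-4.37 in batch 6 and above 0 in batch 7). Called in batch 6 but not with both batches were Arl11, Hist1h2bc, Lipg, Runx1, Stfa2l1, Trim30a and Usp15, and Stfa2l1 is another stefin A copy, with -2.70 in batch 6 and -0.90 in batch 7. Over all 7388 genes the differences of the batches had a Pearson r of 0.09, a description across genes, which are not independent. A batch by treatment term passed in 0 genes by edgeR, with 355 genes at an unadjusted p below 0.05, and in 95 by DESeq2 and 7 by limma-voom, and batch 6 had 1 LPS plate for this test.

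**Figure D4:**
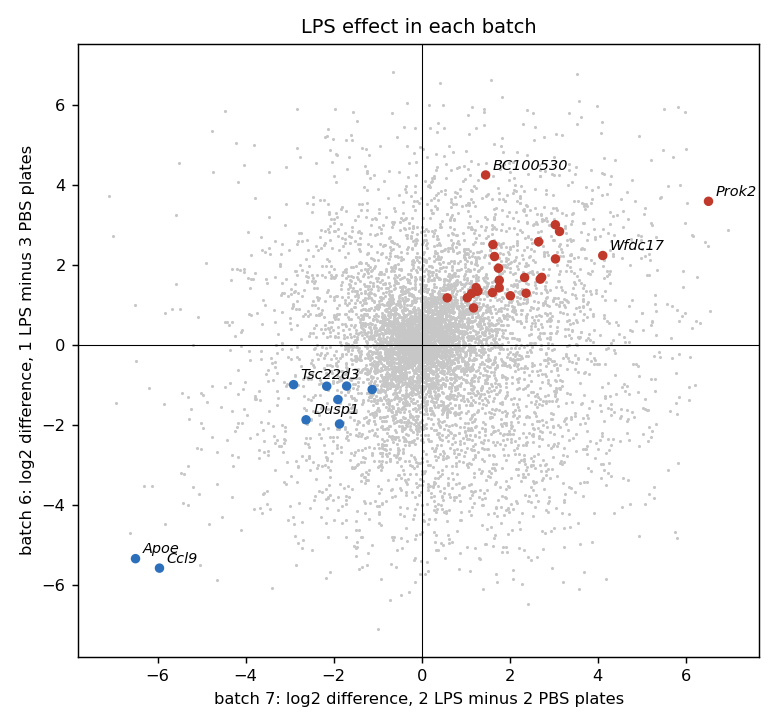
Log2 difference between LPS and PBS plates in batch 7 (horizontal, 2 against 2 plates) and in batch 6 (vertical, 1 against 3 plates) for all 7388 genes in grey, with called genes in red where higher and blue where lower. All 34 called genes lie in the 2 quadrants of equal sign, as the fit over both batches favours, and BC100530 is higher in batch 6 (4.25) than in batch 7 (1.45).

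Calls rested unequally on single plates. Without the LPS plate of batch 6, 9 genes passed and 25 of the 34 did not, and batch 6 then held no LPS plate. Without LPS plate 2 of batch 7, 20 genes passed. The 7 genes that passed with any 1 plate left out were Lilr4b, Wfdc17, Prok2, Lrg1, Alas1, Lyz2 and Apoe. In the 13 settings that left out no single plate, Lilr4b passed in all and Lyz2 in 12. Alas1, Prok2 and Wfdc17 passed in 11 of them, Lrg1 in 10 and Apoe in 9. With 1 plate left out, Dynll1 passed in 1 and B4galt3 in 2 of 8 fits. All 34 kept their sign in each of 21 other settings, and without the 2 cells richest in the gene in each plate all 34 kept the direction of the group means. These settings reused the plates on which the genes had been called, so keeping the sign was favoured in advance.

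The LPS effect in BM was set beside that in PB with all 16 plates in 1 model. The 25 genes that rose in BM had a positive log2 fold change in PB too, as did 44.1% of the 8928 genes tested. Of the 34 genes 21 passed in PB with the same sign and Lyz2 with the other, against 9.82% of all genes in either direction. Over all genes the difference between the tissues passed in 3.32% of 8928 genes, and it passed in 4 of the 34. Lyz2 fell in BM and rose in PB (3697 to 6223 CPM in the 4 LPS blood plates and 1589.7 to 3186 CPM in the 4 PBS blood plates), a difference of -2.23 ± 0.30 (SE), adjusted p = 2.27e-05. Ifitm6 rose in both and by more in PB (2269 to 4659 CPM in the 4 LPS blood plates and 138 to 310.1 CPM in the 4 PBS blood plates), a difference of -3.37 ± 0.40 (SE), adjusted p = 3.4e-06. Dusp1 fell in BM and stood at 2476 to 3261 CPM in the 4 LPS blood plates and 1909 to 4897 CPM in the 4 PBS blood plates, a difference of -2.21 ± 0.54 (SE), adjusted p = 0.021. Ccl9 had a difference of -7.60 ± 1.74 (SE), adjusted p = 0.0112, a size that depends on the 3 UMIs of the LPS BM plates, and stood at 10.9 to 31.2 CPM in the 4 LPS blood plates and 2.4 to 33.6 CPM in the 4 PBS blood plates. Prok2 rose in both tissues, with 165 to 458 CPM in the 4 LPS blood plates and 0.278 to 38.4 CPM in the 4 PBS blood plates, and its difference did not pass (-1.12 ± 1.45 (SE), adjusted p = 0.788). With library size alone as the scale, the median difference of all genes moved by 1.07 and Dusp1 did not pass (-1.12, adjusted p = 0.207). On that scale the differences of Lyz2 (-1.16), Ifitm6 (-2.29) and Ccl9 (-6.60) passed. Effects in PB alone were fitted with TMM scaling only. The rise of Lyz2 in PB and the positive PB signs of the 25 genes therefore hold for that scaling.

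**Figure D5:**
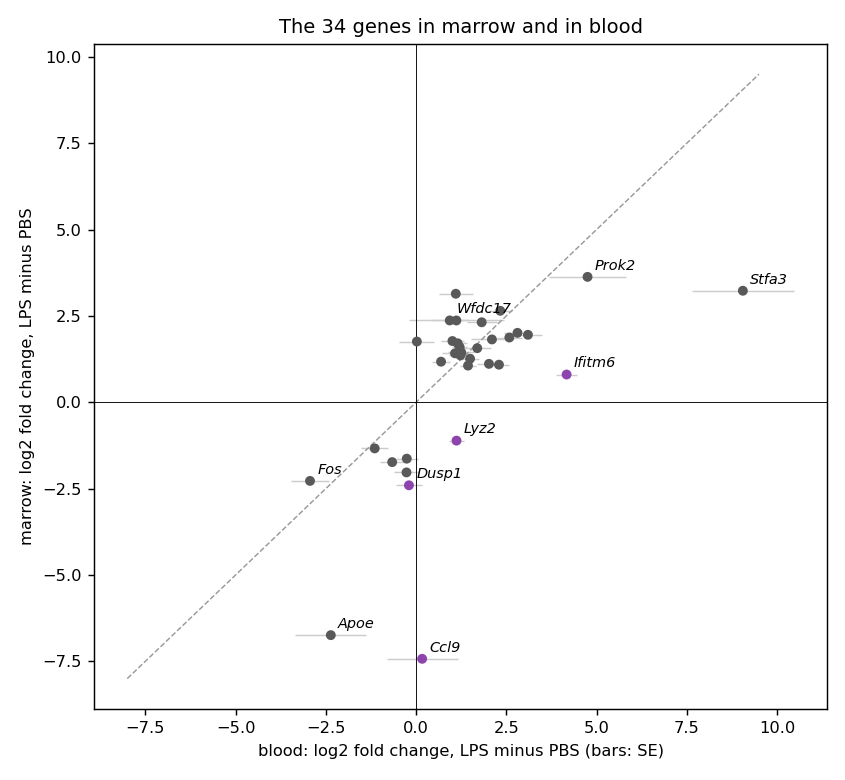
Log2 fold change (LPS minus PBS) of the 34 genes in PB (horizontal, bars are SE) and in BM (vertical) from 1 model of 16 plates, with genes whose tissue difference passed in purple and equal effects on the dashed line. With TMM scaling, Lyz2 lies at 1.12 in PB and -1.11 in BM, and the 25 genes that rose in BM lie right of 0.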

How the data were processed

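Single neutrophils of BM and PB from mice given LPS or PBS were measured by SCRB-seq. The deposited UMI counts per gene and cell (10970 genes) had been made by the authors with Cutadapt 1.15, STAR 2.6.0a on mm9 and HTSeq 0.11.2, per the methods and the submitters' processing notes, and the deposited cells had passed the authors' filters. The gene annotation used for counting and its strand setting are not given in the sources used here. The authors' deposited ERCC fraction per cell (denominator not stated) and cluster numbers served as checks. No mitochondrial or ERCC gene was in the table. Barcode sequences were not used.

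UMI counts were summed per plate, 6973234 to 10089434 UMIs each. Genes kept by filterByExpr were tested with edgeR 4.0.16 in R 4.3.3 (quasi-likelihood, TMM, batch as a term, prior count 2 for log2 values), with Benjamini-Hochberg adjustment at 0.05, and the procedure was tested on simulated data. Tissue differences came from an interaction term in a model of all 16 plates. DESeq2 1.42.0, limma 3.58.1 (voom), other scalings and filters, single batches, left-out plates, cells thinned to 5000 UMIs and, chosen after seeing the data, cells of the authors' cluster 0 alone and plate levels without 2 top cells were the alternatives. Python 3.11.15, pandas 2.3.3, numpy 2.4.6, scipy 1.17.1 and matplotlib 3.10.9 were used. Intervals are exact at 95% and cover counting error only.

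The members, gene lists and tests were chosen with earlier results of these data known. Named were the 12 largest rises and falls with a mean of at least 50 CPM in the higher group, called list members, the 3 most abundant members of each list, and Sod2. Adam19, B4galt3, Ccl9, Csf2rb, Fbxl5, Mbd2, Ripor2 and Sbno2 passed outside this rule and were named after their values were seen, as were the genes of the single batches. Of the 34 genes that passed, 1 enters the counts but is not reported here. Wfdc17, Jaml, Ripor2 and Gucd1 carry older names in the mm9 annotation (Gm11428, Amica1, Fam65b and 1110038D17Rik).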

Additional observations from a re-analysis of the deposited data

Results flagged for a closer look

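In 6 of 81 genes examined, 1 of the 5 PBS BM plates stood apart from the other 4 by Dixon's criterion, which chance meets in about 1 of 20 groups. PBS plate 1 of batch 7 stood apart for Casp4, at 16.4 CPM below the others, and for Jaml and Cxcr2, at 456 and 1656 CPM above them. PBS plate 2 of batch 7 stood apart for Il4ra, at 57.0 CPM above the others, and for B2m, at 3032 CPM. In batch 6, plate 2 stood apart for Lilrb4a at 1503 CPM.

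The LPS effect differed between BM and PB for 4 of the 34 genes by the interaction term. On the log2 scale BM minus PB was -7.60 for Ccl9, -2.21 for Dusp1, -3.37 for Ifitm6 and -2.23 for Lyz2. With batch 7 alone Ccl9 did not pass (-8.84, adjusted p = 0.238), and Dusp1 did not pass with library size alone (-1.12, adjusted p = 0.207).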

How the results depend on the processing

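The count of 34 genes was 254 with DESeq2 (32 shared, 230 with one direction in both batches), 77 with limma-voom (31 shared), 91 without the filter on low counts (34 shared), 4 with batch 7 alone and 14 with batch 6 alone. Leaving out 1 plate gave 9 to 40 genes, the lowest without the LPS plate of batch 6, and 20 to 40 with one direction in both batches where both batches kept both groups. Batch by treatment calls, 0 by edgeR, were 95 with DESeq2, 7 with limma-voom, 8 without the filter, 2 with thinned cells and 0 to 1 with a plate left out (1 without PBS plate 1 of batch 7). The BM minus PB count among the 34 rose from 4 to 9 with library size alone, which moved the median tissue difference of all genes by 1.07 (the BM median by 0.12). Sod2 changed sign with limma-voom (0.13) and batch 7 alone (0.70) and ranged from -1.18 to 0.81 (sign changed from 0.03 to 0.81) with a plate left out. With the replicate block, the batch 7 numbers gave 45 genes (33 shared) and Sod2 at 0.23. The labels do not say that a number pairs samples, and same-numbered plates deviated with a Pearson r of -0.03 across genes. No cell exceeded the limit on markers of other cells, so leaving such cells out changed nothing. The causes were not tested.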
